A study of Homo sapiens with 12 samples.

Results

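The proteasome genes described here are the 50 protein-coding genes of 21462 measured genes whose names begin with PSMA, PSMB, PSMC, PSMD, PSME, PSMF or PSMG and a number. They comprise 19 genes of the 20S core (8 alpha-ring genes, 7 beta-ring genes and 4 inducible or tissue-restricted beta genes), 20 genes named for the 19S cap (6 ATPases and 14 others), 4 activators, the inhibitor PSMF1, 4 assembly factors of the core (PSMG1 to PSMG4) and 2 genes that share the naming pattern without being subunits. The last are PSMC3IP, which acts in meiotic recombination, and PSME3IP1, which encodes a binding partner of the activator PSME3. RNA was sequenced from LN229, an established human glioblastoma cell line, in 6 control libraries (0 mM metformin, called untreated in the labels and vehicle in the figure legend of the study) and 6 libraries of cells given 100 mM metformin for 5 h. Metformin, a biguanide used against diabetes, inhibits mitochondrial respiration. All groups are the same cell line at 1 dose and 1 time, and bulk RNA cannot tell fewer cells from less RNA per cell.

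The proteasome degrades proteins tagged with ubiquitin. Its 20S core is a barrel of stacked rings, in which alpha subunits form the gate and 3 kinds of beta subunit (PSMB5, PSMB6 and PSMB7) carry the active sites. The 19S cap binds ubiquitin, removes it, unfolds the substrate with a ring of ATPases and feeds it into the core. Subunits are needed in fixed proportion, so the genes are usually transcribed together, with NFE2L1 as the best known transcription factor of the set when proteasome activity falls short. Assembly needs dedicated chaperones: PSMG1 with PSMG2 and PSMG3 with PSMG4 build the alpha ring, POMP brings in the beta subunits, and PSMD5, PSMD9, PSMD10 and PAAF1 hold the ATPases of the cap until they are joined. PSMD5, PSMD9 and PSMD10 bear the names of cap subunits although they leave before the cap is complete.

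NFE2L1 acts through antioxidant response elements. Promoter sequences from RefSeq (GRCh38.p14, 250 bases before to 50 bases after each start) were matched to 44 of the 50 genes by symbol, 42 of them proteasome genes proper. The core of the element, TGACNNNGC on either strand, was found in 13 of those 42 promoters (31.0%) and in 13.6% of 27305 promoters of the same length. By class it was in 2 of 15 promoters of the 20S core (13.3%, close to the share of all promoters), 6 of 19 of the 19S cap (31.6%), 3 of 5 of the activators and inhibitor and 2 of 3 of the assembly factors. The core genes PSMA7, PSMB1, PSMB6 and PSMB7, the cap gene PSMD4 and the assembly factor PSMG3 had no promoter entry. The core promoters searched include those of PSMA8 and PSMB11, which lacked the element and were too low to test for expression. The CCAAT box (CCAAT) was found in 45.2% against 35.7% of all promoters, and the GC box (GGGCGG) in 66.7% against 44.6%; each motif was searched separately, so matches may overlap. A match is a run of letters and not a bound site. The stretches around the match in PSMD5, PSMG1 and PSME1 are shown because these genes carry the same core, in capitals, and differed in direction in the results that follow (PSMD5 lower, PSME1 higher, PSMG1 lower in TPM and of the opposite sign after another scaling). They lie at chr9:120842988-120843116 (minus strand), chr21:39183566-39183694 (minus strand) and chr14:24136048-24136176 (plus strand).
PSMD5: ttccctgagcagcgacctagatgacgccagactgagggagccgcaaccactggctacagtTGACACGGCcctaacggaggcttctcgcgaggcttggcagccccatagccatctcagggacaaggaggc
PSMG1: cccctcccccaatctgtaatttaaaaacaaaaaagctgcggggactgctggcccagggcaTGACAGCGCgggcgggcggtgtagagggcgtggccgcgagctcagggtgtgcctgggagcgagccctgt
PSME1: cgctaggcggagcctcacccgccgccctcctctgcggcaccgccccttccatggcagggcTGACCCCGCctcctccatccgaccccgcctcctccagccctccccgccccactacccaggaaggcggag

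The control libraries held 19583535 to 21836186 exon reads and the metformin libraries 14331617 to 19516144, the lowest being metformin replicate 1. Proteasome genes took 1.10 to 1.16% of the summed TPM (reads per length of transcript, scaled to the same total in each library) in control cells and 1.14 to 1.19% in metformin cells. Metformin replicate 1 stood apart from the other 11 libraries. The share of the proteasome genes' exon reads that crossed an exon junction was 53.2% in it and 68.4 to 72.1% in the others. Calls that changed without this library are therefore named. Markers fitted the glioma label in part: VIM (450 to 1107 TPM), CD44 (91.6 to 293 TPM) and NES (22.3 to 61.3 TPM) were present, SOX2 and GFAP were at or near 0 in every library, and CDKN2A, deleted in LN229, reached at most 0.03 TPM. TNC and OLIG2, also among the 7 listed glioma markers, are not given here. Of 9 markers of other cell types, 7 reached at most 0.87 TPM, whereas CD68 had 9.23 to 27.9 TPM and RBFOX3 2.51 to 7.35 TPM.

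In metformin cells, transcripts of the 20S core and of the 19S ATPases lay close to their control levels in TPM. All 4 assembly factors fell in TPM, 2 of them also after the median-ratio scaling described below, where PSMG1 changed sign, and the base chaperone PSMD5 fell the furthest of all members on both scales. With limma on log2(TPM + 1), 2 of 48 tested members rose and 10 fell at an adjusted p under 0.05 (Benjamini-Hochberg over the 11313 genes with a mean of at least 1 TPM). Over all tested genes 8.00% rose and 41.8% fell, so both shares lay lower among the members than among all genes. The median log2 fold change was -0.05 over the 48 members and -0.37 over all genes tested, and 33 members (68.8%) lay within 0.25 of 0 on the log2 scale against 28.1% of all genes. The members not tested were PSMA8 and PSMB11, forms restricted to testis and thymus, with at most 1 exon read in any library.

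**Figure D1:**
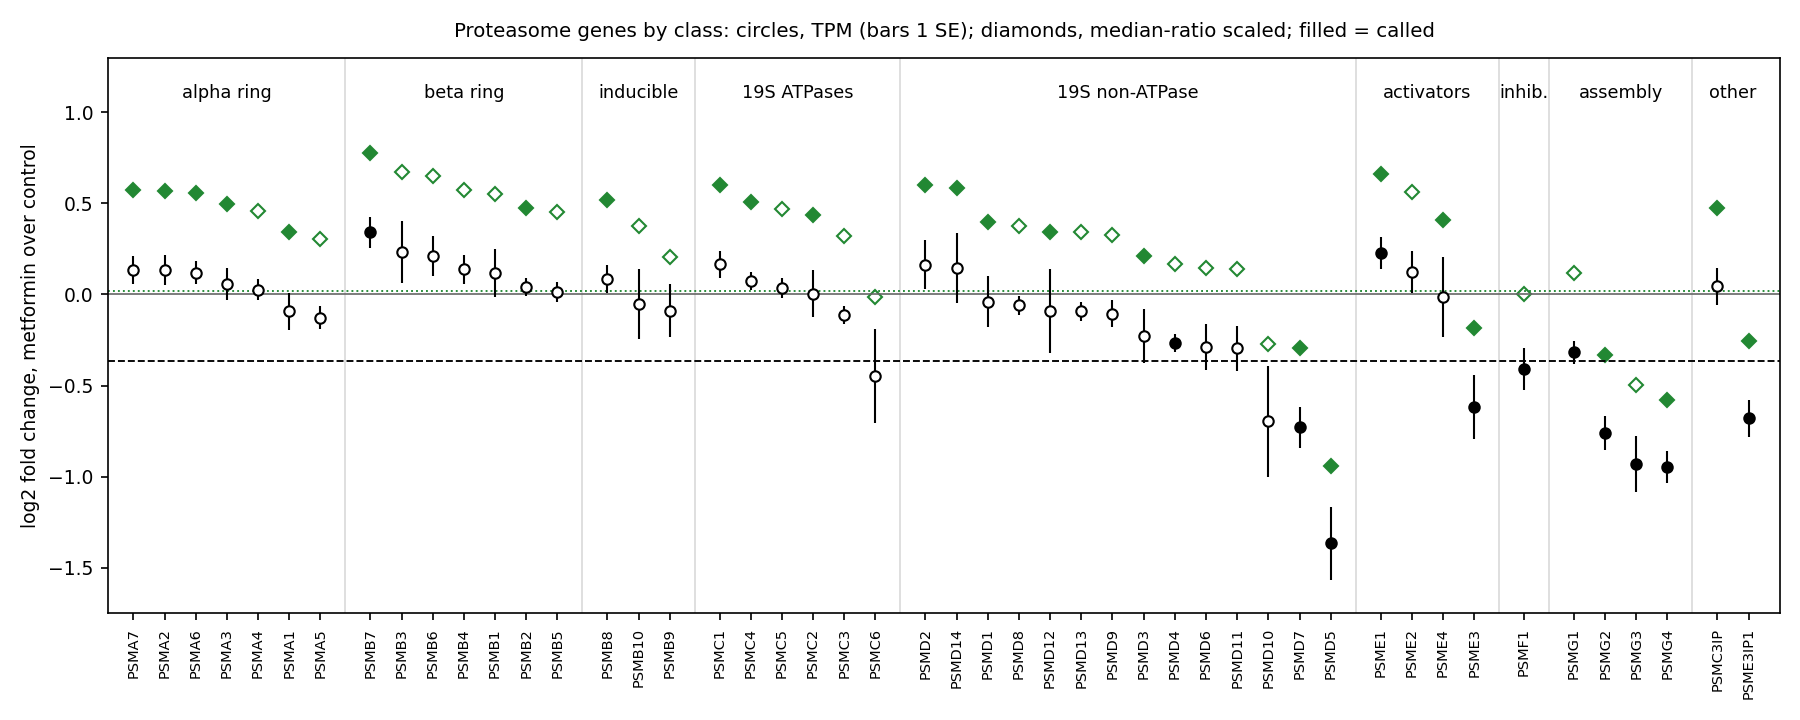
Log2 fold change (vertical axis, metformin over control) of the 48 tested genes by class. Circles are limma on log2(TPM + 1) with bars of 1 SE, diamonds are the same test after median-ratio scaling, filled symbols have an adjusted p under 0.05, and the dashed and dotted lines are the medians of all genes on the 2 scales (-0.37 and 0.02). Core genes lie above the assembly factors and PSMD5 on both scales.

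TPM is a share of the library, so its sign depends on what the bulk of transcripts did. When each library was instead divided by its median ratio to a geometric mean library, the median of all genes moved from -0.37 to 0.02, and 19 members rose and 6 fell (23.4% and 25.5% of all genes). The quasi-likelihood test of edgeR on exon reads gave 24 higher and 6 lower (24.5% and 25.9% of all genes). Relative to the median gene the core genes and, except PSMC6, the ATPases therefore lay higher in metformin, and relative to the whole library they were near level. The log2 fold change of 17 members turned from below 0 in the main test to above 0 after median-ratio scaling. Of these, 3 had been called lower (PSMD4, PSMF1 and PSMG1), and 5 were called higher after it (PSMA1, PSMD1, PSMD3, PSMD12 and PSME4). The 6 genes that fell in the main test and under each other scaling, tool, unit, pseudocount, filter or block, or with 1 library left out, wherever tested (21 settings in all) were PSMD5, PSMD7, PSME3, PSME3IP1, PSMG2 and PSMG4, of which PSMG4 was tested in 20 because a minimum mean of 5 TPM removes it. None rose in every one. On reads across exon junctions alone, an alternative added after the data were seen, only PSMD5 of these 6 was called lower. That test called fewer genes of any kind, with 1661 of 10430 lower against 2935 of 11313 with edgeR on exon reads. Without metformin replicate 1, the main test called 12 members higher and 16 lower (17.1% and 49.3% of all genes). Beyond the calls of the main test on all libraries, the 10 new higher calls were PSMA2, PSMA3, PSMA6, PSMA7, PSMC1, PSMC2, PSMD2, PSMD12, PSMD14 and PSMC3IP. The 6 new lower calls were PSMC3, PSMC6, PSMD6, PSMD9, PSMD10 and PSMD11, and 0 calls were lost. The former 10 were also called higher after median-ratio scaling, with edgeR and with DESeq2. Of the latter 6, PSMD6, PSMD10 and PSMD11 were called lower in other settings too.

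The 20S core was near level in TPM. Of its 17 tested genes 1 rose and 0 fell (0 also at an unadjusted limma p under 0.05, and 0 with edgeR and DESeq2), with a median log2 fold change of 0.08 and a range of -0.13 to 0.34 in the main test; after median-ratio scaling 8 rose and 0 fell, with a median of 0.52. Of the 7 alpha-ring genes tested, which form the outer rings and the gate, 0 changed in the main test (0 at an unadjusted limma p under 0.05), while edgeR and DESeq2 each called 6 higher. The most abundant of them, PSMA7, had 378 to 466 TPM in control (median 440) and 396 to 514 in metformin (median 480), and the groups overlapped. Without metformin replicate 1, 4 alpha-ring genes (PSMA2, PSMA3, PSMA6 and PSMA7) were called higher. PSMA1, PSMA2 and PSMA6 share reads with read-through genes (56.5%, 11.5% and 17.0% of their exon reads were unique), so their values are uncertain.

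The 1 core gene that rose in the main test belonged to the beta ring. PSMB7, the trypsin-like catalytic subunit and the core gene with the highest TPM, had 762 to 886 TPM in control libraries (median 827) and 944 to 1327 in metformin libraries (median 996). In the files the gene lies on chromosome 9, at 124353465 to 124415444 on the minus strand. The groups did not overlap, with metformin replicate 1 the highest at 1327. Its log2 fold change was 0.34 (SE 0.08, adjusted p = 0.00457, limma on TPM) and 0.27 without that replicate. Of all genes tested, 4.68% had non-overlapping groups with metformin higher, and PSMB7 was the 1 member among them. The other catalytic genes overlapped between groups. PSMB5, the chymotrypsin-like subunit, had 376 to 425 TPM in control and 383 to 431 in metformin, and PSMB6, the caspase-like subunit, had 412 to 489 and 445 to 740. Within each library the log2 ratio of PSMB7 to PSMB5 (each TPM + 1, so nearly free of scaling between libraries) was 0.98 to 1.07 in control and 1.22 to 1.69 in metformin.

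The inducible catalytic genes PSMB8, PSMB9 and PSMB10 replace PSMB5, PSMB6 and PSMB7 in the immunoproteasome, the form induced by interferon. Of the 3, 0 changed in the main test (0 at an unadjusted limma p under 0.05), and edgeR and DESeq2 each called 1 higher. PSMB8 had 56.7 to 73.9 TPM in control and 65.7 to 72.4 in metformin. PSMB10 had 37.2 to 50.2 and 33.1 to 80.9 TPM, where the 80.9 belonged to metformin replicate 1 and the other 5 libraries reached 43.3 at most. PSMB9 was close to its floor, with 11 to 25 exon reads per library and 1.21 to 2.61 TPM. The log2 ratio of PSMB10 to PSMB7 was -4.39 to -4.04 in control, -4.79 to -4.59 in metformin replicates 2 to 6 and -4.02 in metformin replicate 1, so that replicate alone closed the gap between the groups. Only 75.5% of the exon reads of PSMB10 were unique. PSMB8 and PSMB9 overlap on opposite strands, and nothing states that counting used strand, so their reads cannot be told apart with certainty.

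The 6 ATPases of the cap, PSMC1 to PSMC6, which unfold the substrate, resembled the core. In the main test 0 of 6 changed and the median log2 fold change was 0.02. At an unadjusted limma p under 0.05, 1 was higher and 1 lower. After median-ratio scaling 3 rose and 0 fell, and edgeR and DESeq2 each called 4 higher and 0 lower. PSMC3, the most abundant, had 436 to 474 TPM in control and 396 to 444 in metformin (log2 fold change -0.11, adjusted p = 0.0823, limma), and was called lower without metformin replicate 1 (-0.10, adjusted p = 0.0348), but its log2 fold change was 0.32 after median-ratio scaling and not called. PSMC1 and PSMC2 were called higher without that library, at 0.22 (adjusted p = 0.000231) and 0.13 (adjusted p = 0.00545, limma). PSMC6 departed from the rest with 129 to 148 TPM in control, 114 to 132 in metformin replicates 2 to 6 and 38.1 in metformin replicate 1. Its log2 fold change of -0.45 (SE 0.26, adjusted p = 0.171, limma) was -0.17 and called lower without that library (adjusted p = 0.0152). After median-ratio scaling of all libraries PSMC6 had -0.01 and was not called (adjusted p = 0.932).

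Among the 14 other genes of the cap, 3 fell and 0 rose in the main test, against 5 higher and 2 lower after median-ratio scaling. Over all genes 41.8% fell and 8.00% rose in the main test, and 23.4% were higher and 25.5% lower after that scaling. The share called lower was thus under that of all genes on both scales. PSMD2, a scaffold subunit and the most abundant member of all, had 1051 to 1227 TPM in control, 1163 to 1489 in metformin replicates 2 to 6 and 801 in metformin replicate 1. Its log2 fold change was 0.16 (adjusted p = 0.325, limma) and 0.29 without that library (adjusted p = 0.00134). PSMD14, the deubiquitinase of the cap, had a like pattern, with 276 to 292 TPM in control, 346 to 373 in metformin replicates 2 to 6 and 153 in metformin replicate 1. Its log2 fold change was 0.15 (adjusted p = 0.543) and 0.35 without that library (adjusted p = 1.66e-06). For both genes 1 metformin library lay far below all others. PSMD7, which pairs with PSMD14 in the lid, went the other way: 216 to 234 TPM in control (median 223) and 93.0 to 154 in metformin (median 143), with no overlap. It fell by 0.73 on the log2 scale (SE 0.11, adjusted p = 0.000158, limma), by 0.62 without metformin replicate 1, and by 0.29 after median-ratio scaling (adjusted p = 0.031).

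PSMD4, a ubiquitin receptor of the cap, was very even across metformin libraries. Its TPM was 262 to 295 in control (mean 278, SD 12.1) and 229 to 232 in metformin (mean 230, SD 1.50), without overlap. The log2 fold change of -0.27 (SE 0.05, adjusted p = 0.000687, limma on TPM) was 0.17 after median-ratio scaling and was then not called (adjusted p = 0.458), so the direction rests on the scale. PSMD6 and PSMD11, lid subunits, had log2 fold changes of -0.29 and -0.30 (adjusted p = 0.0798 and 0.0615), and both were called lower without metformin replicate 1 (-0.16 and -0.18). Their signs also rest on the scale, with 0.15 and 0.14 after median-ratio scaling, neither called. PSMD12, another lid subunit, had -0.09 in the main test, 0.15 without metformin replicate 1 (adjusted p = 0.0453, limma) and 0.34 after median-ratio scaling, called higher in the last 2.

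Of the base chaperones, PSMD5 changed the most. PSMD5, at 120815496 to 120842951 on the minus strand of chromosome 9, had 74.9 to 96.6 TPM in control libraries (median 80.1) and 15.2 to 39.8 in metformin libraries (median 35.8). Metformin replicate 1 was the lowest, and replicates 2 to 6, at 31.4 to 39.8, still lay below every control. It fell by 1.37 on the log2 scale (SE 0.20, adjusted p = 0.00011, limma), the largest change of any member, by 1.17 without metformin replicate 1 and by 0.94 after median-ratio scaling. PSMD10, also known as the oncoprotein gankyrin, had 73.8 to 83.6 TPM in control, 56.0 to 65.9 in metformin replicates 2 to 6 and 14.8 in metformin replicate 1. Its groups did not overlap, but it was not called in the main test (log2 fold change -0.70, SE 0.30, adjusted p = 0.0749, limma). Without that library it was called lower (-0.37, adjusted p = 9.34e-05). After median-ratio scaling of all libraries it was not called (-0.27, adjusted p = 0.185). PSMD9 had 45.0 to 54.5 TPM in metformin and 47.9 to 56.5 in control, which overlapped (-0.10, adjusted p = 0.249), and was called lower without metformin replicate 1 (-0.14, adjusted p = 0.0254), but had 0.33 after median-ratio scaling, not called. Each chaperone was set against an ATPase that it holds: the log2 ratio of PSMD5 to PSMC2 was -0.72 to -0.35 in control and -2.30 to -1.70 in metformin, that of PSMD10 to PSMC4 was -1.85 to -1.62 and -4.10 to -2.05, and that of PSMD9 to PSMC6 was -1.60 to -1.22 and -1.50 to 0.51. The first 2 ratios did not overlap between groups and the third did.

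The activators split by kind. PSME1 and PSME2 form the interferon-inducible ring that caps the core, PSME3 forms its nuclear counterpart, and PSME4 encodes a large nuclear activator. PSME1 had 103 to 121 TPM in control (median 115) and 117 to 161 in metformin (median 131), with overlap at the edge. It rose by the main test (log2 fold change 0.23, SE 0.09, adjusted p = 0.0495, limma), a call that was lost when any 1 of 9 libraries was left out. PSME2, its partner, had 111 to 141 and 123 to 200 TPM and was not called (0.13, adjusted p = 0.38). PSME3 had 169 to 205 TPM in control (median 178) and 64.5 to 160 in metformin (median 127), with metformin replicate 1 the lowest. The groups did not overlap, and PSME3 fell by 0.62 (SE 0.18, adjusted p = 0.0109, limma), by 0.44 without that replicate and by 0.18 after median-ratio scaling (adjusted p = 0.0166). The log2 ratio of PSME3 to PSME1 was 0.48 to 0.98 in control and -1.31 to 0.42 in metformin. PSME4 had 28.8 to 42.2 and 17.1 to 47.5 TPM, which overlapped, and its sign turned from -0.01 to 0.41 after median-ratio scaling. The inhibitor PSMF1 had 18.6 to 21.1 and 10.7 to 18.9 TPM, and its log2 fold change of -0.41 (adjusted p = 0.0102, limma) became 0.00 after median-ratio scaling. PSME3IP1 had 37.7 to 41.1 TPM in control and 18.4 to 28.2 in metformin and fell (log2 fold change -0.68, SE 0.10, adjusted p = 0.000105), and by 0.26 after median-ratio scaling (adjusted p = 0.05). PSMC3IP was not called in the main test (0.05) and was called higher without metformin replicate 1 (0.13, adjusted p = 0.0345, limma).

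All 4 assembly factors of the core fell in the main test, in which 41.8% of all genes fell. The median log2 fold change of the 4 was -0.85. After median-ratio scaling, edgeR or DESeq2, 2 of the 4 were called lower and 0 higher. PSMG1, which forms a dimer with PSMG2, had 119 to 132 TPM in control (median 124) and 87.2 to 107 in metformin (median 101). PSMG2 had 100 to 109 TPM in control (median 105) and 46.2 to 68.5 in metformin (median 65.5). Neither gene's groups overlapped, and metformin replicate 1 was the lowest for both. PSMG1 had a log2 fold change of -0.32 (SE 0.06, adjusted p = 0.00113, limma on TPM), which turned to 0.12 and was not called after median-ratio scaling, whereas PSMG2 fell by 0.76 (SE 0.09, adjusted p = 2.64e-05) and by 0.33 after that scaling (adjusted p = 0.0384). Within the dimer the log2 ratio of PSMG2 to PSMG1 was -0.28 to -0.20 in control and -0.90 to -0.56 in metformin.

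PSMG3 and PSMG4 form the other dimer. PSMG3 had 64.8 to 85.3 TPM in control (median 79.2), 32.8 to 41.3 in metformin replicates 2 to 6 and 65.0 in metformin replicate 1. That replicate alone made the groups meet. The log2 fold change was -0.93 (SE 0.15, adjusted p = 0.000268, limma), -1.07 without that replicate and -0.50, not called, after median-ratio scaling (adjusted p = 0.199). PSMG4, on chromosome 6 at 3231403 to 3303373, had far lower TPM than PSMG3. It had 5.81 to 6.83 TPM in control (median 6.61) and 2.41 to 3.47 in metformin (median 2.74), with no overlap. It fell by 0.95 (SE 0.09, adjusted p = 2.84e-06), by 0.99 without metformin replicate 1 and by 0.58 after median-ratio scaling (adjusted p = 0.028). TPM divides by exon length, which was 9887 bases for PSMG4 and 1973 for PSMG3. The part of length in their different TPM was not tested. The log2 ratio of PSMG4 to PSMG3 was -3.51 to -3.27 in control and -3.88 to -3.24 in metformin, so this ratio overlapped. PSMG3 overlaps an antisense gene, and PSMG4 overlaps TUBB2B and SLC22A23 on the other strand, so part of their reads may come from these genes.

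**Figure D2:**
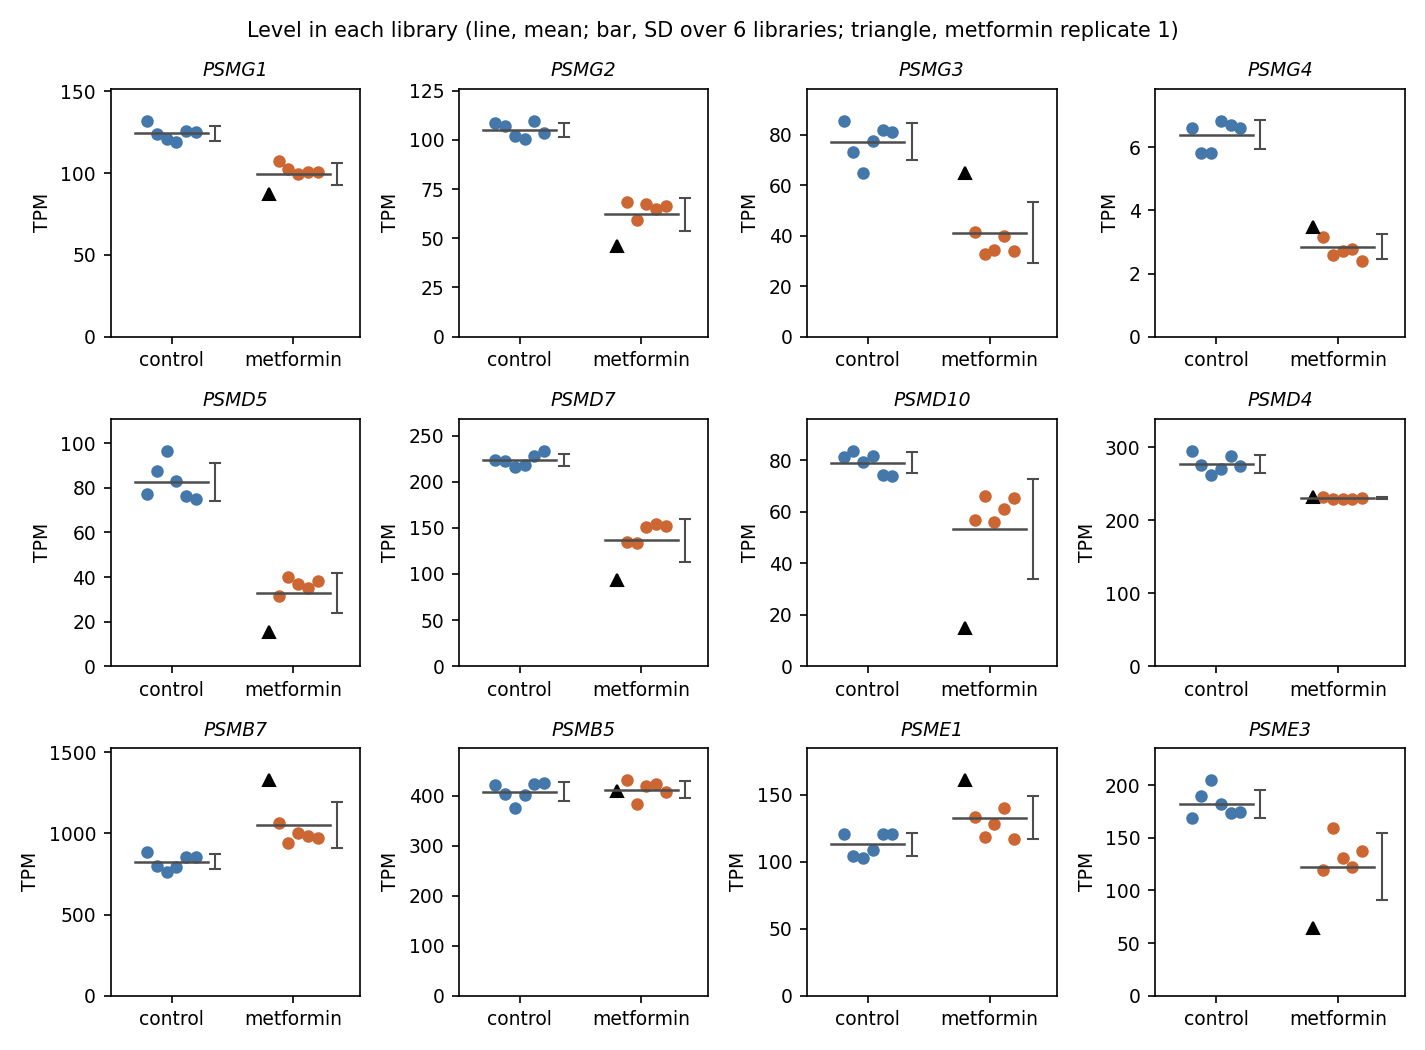
TPM (vertical axes, from 0) of 12 proteasome genes in each of 6 control and 6 metformin libraries, with the mean as a line and 1 SD as a bar. The triangle is metformin replicate 1. PSMD5 lies at 15.2 to 39.8 TPM in metformin against 74.9 to 96.6 in control, PSMB5 overlaps throughout, and PSMG3 meets the control range only through the triangle.

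Counted by separation alone, 10 of the 48 members had non-overlapping groups with metformin lower (PSMD4, PSMD5, PSMD6, PSMD7, PSMD10, PSME3, PSME3IP1, PSMG1, PSMG2 and PSMG4), against 37.3% of all genes. None of them was a core gene or an ATPase. The share of members that separated downwards was thus under that of all genes.

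Summed levels gave the balance between classes. The 20S core summed to 4843 to 5588 TPM in control and 5279 to 7006 in metformin, a ratio of means of 1.12, or 1.08 without metformin replicate 1, which was the highest. The 19S cap summed to 5051 to 5260 TPM in control, 4902 to 5413 in metformin replicates 2 to 6 and 3744 in metformin replicate 1, a ratio of 0.969, or 1.02 without that library. The assembly factors summed to 293 to 332 TPM in control and 197 to 220 in metformin, a ratio of 0.657, which became 0.924 after median-ratio scaling. As a share of the core sum in the same library, which is free of scaling between libraries, the assembly factors amounted to 5.77 to 6.09% in control (mean 5.93, SD 0.13) and 2.88 to 3.74% in metformin (mean 3.50, SD 0.31). The 6 control libraries agreed closely in this share, and the highest metformin library lay well under the lowest control. In the main test the median log2 fold change was 0.08 for the core, -0.85 for the assembly factors and -0.37 for all genes. The median gene thus also fell relative to the median core gene, though by less than the median assembly factor. These sums are descriptions, since the members were chosen with earlier results known.

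**Figure D3:**
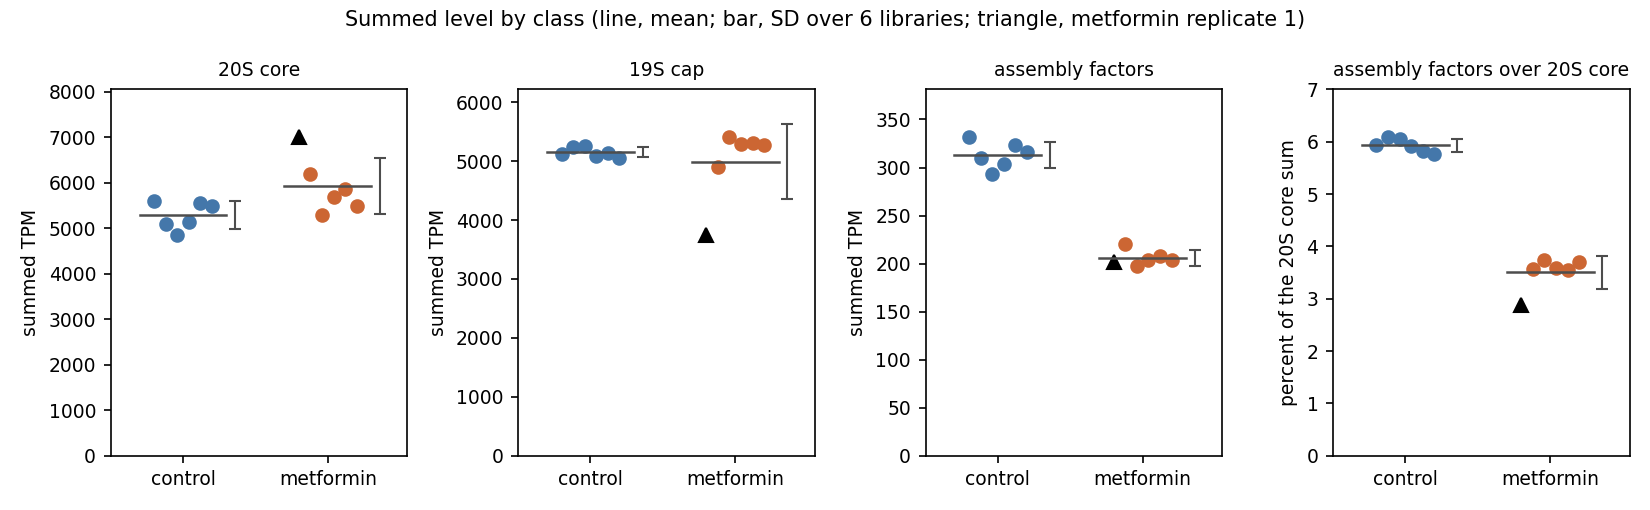
Summed TPM of the 20S core, the 19S cap and the 4 assembly factors, and the assembly factors as a percent of the core sum, in each library (vertical axes from 0, lines are means, bars are 1 SD over 6 libraries). The share is 5.77 to 6.09% in control and 2.88 to 3.74% in metformin. The triangle, metformin replicate 1, is the highest for the core and the lowest for the cap.

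**Figure D4:**
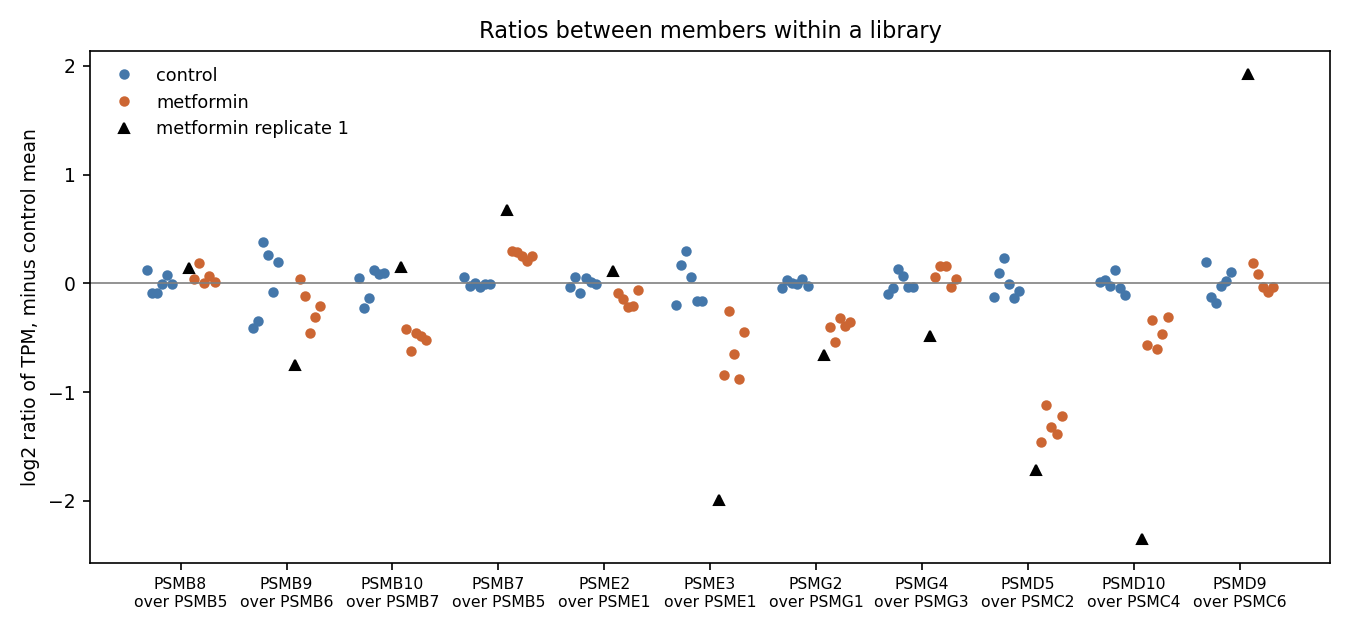
Log2 ratio of TPM between pairs of proteasome genes in each library, minus the control mean of that pair (vertical axis). The 6 control points of a pair cluster at 0. PSMD5 over PSMC2 and PSMG2 over PSMG1 lie below 0 in all 6 metformin libraries and PSMB7 over PSMB5 lies above 0 in all 6, while metformin replicate 1 (triangle) stands apart for PSMD10 over PSMC4 and PSMD9 over PSMC6.

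Reads from introns come mostly from unspliced RNA. With edgeR on intron reads, 46 members with a mean of at least 10 such reads were tested, of which 23 were higher and 9 lower, against 31.3% and 30.2% of 11122 genes. In the cap 14 of 19 genes were higher and 1 lower, including 6 of 6 ATPases (median log2 fold change 0.82). In the core 6 of 17 were higher and 3 lower. PSMC5 had 78 to 105 intron reads in control and 92 to 211 in metformin (log2 fold change of intron reads 1.23, adjusted p = 5.33e-06, edgeR). PSMB1 had 114 to 151 intron reads in control, 262 to 441 in metformin replicates 2 to 6 and 56 in metformin replicate 1 (1.50, adjusted p = 1.66e-05).

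Of the 6 members called lower in exon reads with edgeR, 3 were also lower in introns (PSME3, PSME3IP1 and PSMG4), 2 were higher and 1 was not called. PSMD5 had 99 to 206 intron reads in control and 77 to 206 in metformin, which overlapped, and its intron log2 fold change was 0.44 (adjusted p = 0.0157, edgeR), while it had 2328 to 2565 exon reads in control and 419 to 1005 in metformin (log2 fold change -0.99, adjusted p = 1.17e-07, edgeR). PSMG2 showed the same split, with 0.50 for introns (adjusted p = 0.00696) and -0.35 for exons (adjusted p = 0.0241). In PSMG4 both fell: 58 to 157 intron reads in control against 12 to 34 in metformin, a log2 fold change of -1.58 (adjusted p = 2.63e-06) beside -0.67 for exons. PSMF1 also fell in introns, with 63 to 108 reads in control and 9 to 46 in metformin (-1.22, adjusted p = 3.11e-05), with an exon value of -0.02. PSMG3 had few intron reads (14 to 30 and 2 to 13) and a log2 fold change of -1.12 (adjusted p = 0.00898). Of the 45 genes tested in both classes of read, 11 were called higher in both, 3 lower in both, 2 lower in exons and higher in introns (PSMD5 and PSMG2) and 1 higher in exons and lower in introns (PSMA1). Across these 45 genes Spearman's rho between exon and intron log2 fold change was 0.39, and across 9920 genes 0.54. Genes are not independent replicates and the 2 read classes come from the same libraries, so no test was made. On the other strand PSMG2 overlaps SPIRE1 and CEP76, and PSMD5 overlaps the pseudogene CUTALP. PSMC1 (NRDE2), PSMC2 (DNAJC2 and SLC26A5), PSMC5 (FTSJ3), PSME3 (BECN1) and PSMF1 (TMEM74B) also overlap such genes. PSMD6 and PSME3IP1 overlap antisense RNA genes, and these are not the only other members with such overlaps. Nothing states that counting used strand, so part of their intron reads may come from these neighbours, which was not tested.

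**Figure D5:**
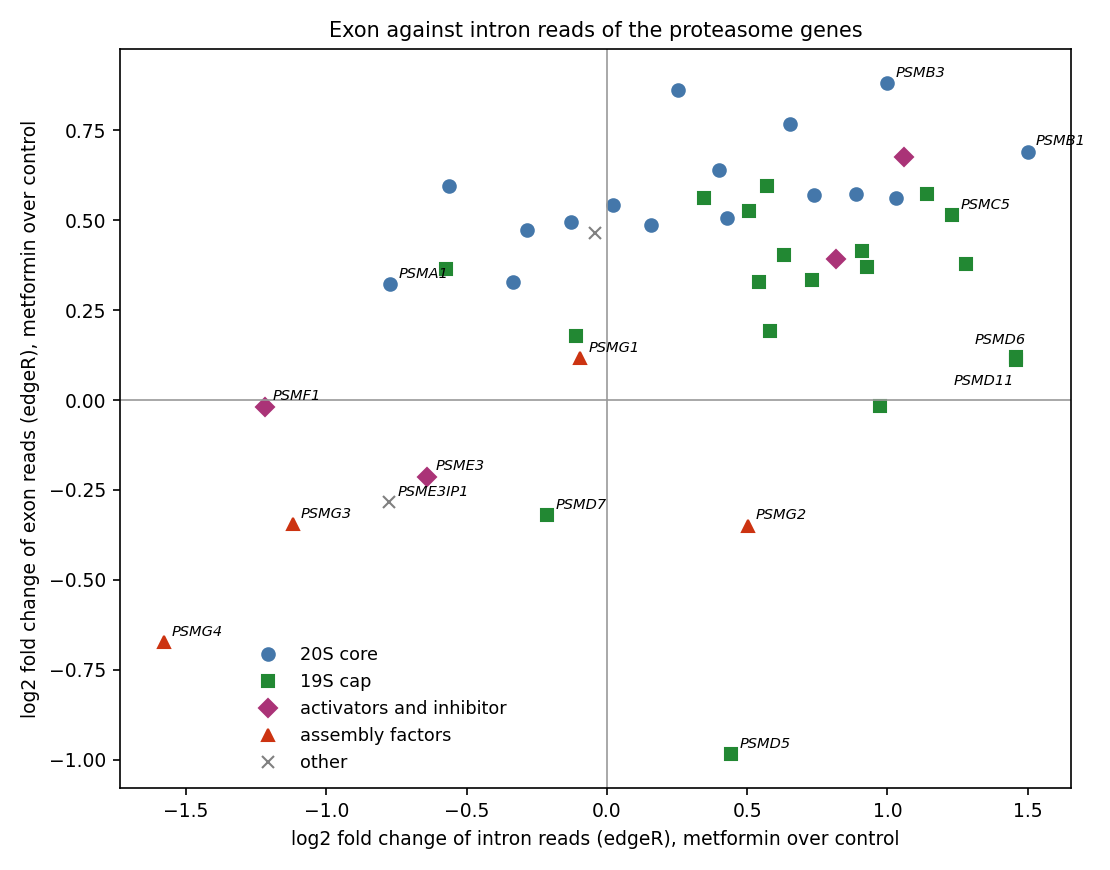
Log2 fold change of exon reads (vertical axis) against that of intron reads (horizontal axis), both from edgeR, for the 45 proteasome genes tested in both, by class. PSMD5 (0.44 for introns, -0.99 for exons) and PSMG2 lie at the lower right, PSMG4 and PSMG3 at the lower left, and the cap genes mostly at the upper right.

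Features of the genes that the naming rule does not use were also compared. Across the 48 members Spearman's rho of the log2 fold change with exon length was -0.40, and across all tested genes -0.14, over points that share the same 12 libraries. The spread between control libraries was also compared. The median coefficient of variation of TPM was 5.28% for the members and 10.5% for all tested genes, with a median level of 161 TPM against 20.2 TPM.

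A list of 41 partner genes, of which 40 were tested, gave 5 higher and 9 lower in the main test, and 15 higher and 5 lower after median-ratio scaling. Over all genes the shares were 8.00% higher and 41.8% lower in the first and 23.4% and 25.5% in the second, and the share lower among the 40 lay under that of all genes on both scales. Among the subunits and chaperones without a PSM name, ADRM1, a ubiquitin receptor of the cap, rose, with 282 to 308 TPM in control and 394 to 435 in metformin (log2 fold change 0.47, SE 0.05, adjusted p = 9.23e-06, limma). POMP, the chaperone of the beta ring, had 261 to 328 and 298 to 489 TPM (0.29, adjusted p = 0.0502, limma) and rose after median-ratio scaling (0.73, adjusted p = 0.0386). PAAF1, a base chaperone like PSMD5, fell, with 7.85 to 8.61 TPM in control and 4.49 to 5.62 in metformin (-0.60, adjusted p = 5.81e-05), although not after median-ratio scaling (-0.22, adjusted p = 0.175).

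Of the 9 genes whose products bind the proteasome, 2 rose and 0 fell (1 lower at an unadjusted limma p under 0.05, 0 with edgeR and DESeq2). AKIRIN2, which carries proteasomes into the nucleus, rose the most of the 40, with 48.9 to 54.8 TPM in control and 96.2 to 146 in metformin (log2 fold change 1.23, SE 0.09, adjusted p = 3.65e-07, limma). ZFAND2A, a stress-inducible zinc finger protein, had 22.6 to 28.4 and 37.0 to 63.3 TPM (0.81, adjusted p = 0.000158). Both also rose after median-ratio scaling. Among 5 ubiquitin shuttles, 1 fell: UBQLN2 had 25.0 to 36.9 TPM in control and 3.87 to 18.0 in metformin (-1.11, adjusted p = 0.00748).

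Of the 8 genes that make, free or process NFE2L1, 4 fell and 0 rose (1 higher at an unadjusted limma p under 0.05, 2 with edgeR and DESeq2), a share lower that is near the 41.8% of all genes. NFE2L1 itself had 86.0 to 123 TPM in control, 65.1 to 103 in metformin replicates 2 to 6 and 31.2 in metformin replicate 1 (log2 fold change -0.40, adjusted p = 0.202, limma). DDI2, the protease that cuts NFE2L1, fell, with 6.39 to 12.7 TPM in control and 0.81 to 4.16 in metformin (-1.39, SE 0.26, adjusted p = 0.000636) and NGLY1, which removes its sugars, fell by 0.77 (adjusted p = 0.00374). SYVN1, a ubiquitin ligase of the endoplasmic reticulum, fell by 1.13 (adjusted p = 4.8e-05). DDI2, NGLY1 and SYVN1 were also called lower after median-ratio scaling, whereas NPLOC4 was not (-0.04, adjusted p = 0.692).

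UBB, which encodes ubiquitin as a chain of repeats, fell in the main test, with 1248 to 1383 TPM in control and 915 to 1091 in metformin, but after median-ratio scaling its log2 fold change was 0.07 and it was not called. In antigen processing, TAPBP rose by 0.47 on the log2 scale (34.6 to 42.9 against 48.9 to 64.0 TPM, adjusted p = 0.000641, limma) and the interferon factor IRF1 by 0.49 (6.79 to 7.87 against 7.46 to 12.3 TPM, adjusted p = 0.00416). NLRC5, the activator of class I antigen presentation genes, fell by 0.97 (adjusted p = 0.00103). These 3 kept their direction and call after median-ratio scaling.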

How the data were processed

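RNA-seq was available for 6 control and 6 metformin libraries of LN229, which the study calls independent experiments, so p-values measure the spread between these. The deposited tables hold whole counts of exon, intron and junction reads per gene, which the authors did not normalize. TPM and RPKM were deposited as the authors computed them, as were fractions of reads, which were not used here. Aligner, counter and human build were not given in the sources used here. Processing notes list the mouse builds GRCm38 and mm10, yet human GENCODE release 29 holds 21377 of the 21462 identifiers. Coordinates are those in the files.

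As in the methods of the study, TPM was tested with limma. Version 3.58.1 (R 4.3.3) was applied to log2(TPM + 1) in a model of condition alone, with a trended prior and Benjamini-Hochberg adjustment at 0.05, over 11313 genes whose mean TPM reached 1. A fold change on this scale understates that of low genes. edgeR 4.0.16 was run on exon and intron counts and DESeq2 1.42.0 on exon counts as alternatives, along with median-ratio scaling, RPKM, a pseudocount of 0.1, other filters, a replicate block and leaving out each library. The scripts were tested on simulated data. All members are accounted for, with values by library for the most abundant, most changed and discordant ones, the inducible subunits and the activators. Partner genes are named where called. The members and gene lists were chosen with earlier results of these data known. No libraries agreed within sampling noise.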

Additional observations from a re-analysis of the deposited data

Results flagged for a closer look

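In groups of 6 libraries, a single library far from the other 5 was looked for in the TPM of each tested member (Dixon's gap over range, above its 95% critical value for 6). Of 96 groups, 19 had one, where chance gives 4.8 (about 1 in 20), and 18 of the 19 were metformin replicate 1. It was the lowest of its group for 10 genes: PSMA1 (191 TPM, others 273 to 296), PSMC2 (78.6, others 131 to 141), PSMC6 (38.1, others 114 to 132), PSMD3 (159, others 274 to 334), PSMD5 (15.2, others 31.4 to 39.8), PSMD6 (105, others 177 to 187), PSMD7 (93.0, others 134 to 154), PSMD10 (14.8, others 56.0 to 65.9), PSMD12 (38.5, others 95.2 to 116) and PSMD14 (153, others 346 to 373).

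It was the highest for 8 genes: PSMB1 (549 TPM, others 309 to 384), PSMB3 (1302, others 579 to 781), PSMB6 (740, others 445 to 554), PSMB7 (1327, others 944 to 1067), PSMB10 (80.9, others 33.1 to 43.3), PSMD9 (54.5, others 45.0 to 47.9), PSME2 (199.9, others 123 to 144) and PSMG3 (65.0, others 32.8 to 41.3). Of the 10 genes low in this library 9 were of the cap, and of the 8 high in it 4 were of the beta ring. The remaining case was PSMD8 in metformin replicate 2 (236 TPM, others 215 to 222). Metformin replicate 1 also had the fewest exon reads (14331617) and the lowest share of junction reads over all genes (38.1%, against 44.7 to 48.1% in the other libraries), and the part of either in these values was not tested.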

How the results depend on the processing

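The main counts were 2 members higher and 10 lower. Members called higher numbered 1 with a pseudocount of 0.1, 1 with no filter on low values, 19 after median-ratio scaling, 24 with edgeR, 27 with DESeq2 and, as alternatives added after the data were seen, 20 with edgeR on unique exon reads, 4 on junction reads, and 26 (median-ratio scaling) and 25 (edgeR) without metformin replicate 1. Members called lower numbered 6 after median-ratio scaling, with edgeR, with DESeq2 and on unique reads, and 1 on junction reads. Over all genes, 3266 of 11313 were called higher with DESeq2, 2747 of 11313 on unique reads and 1293 of 10430 on junction reads. Without metformin replicate 1 these were 3834 (median-ratio scaling) and 3667 (edgeR) of 11313. Genes called lower numbered 2989 with DESeq2, 2908 on unique reads and 1661 on junction reads.

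By class, the 20S core had 0 higher with RPKM, 8 after median-ratio scaling, 12 with edgeR and 14 with DESeq2. The 19S cap had 2 higher and 5 lower with RPKM, and 8, 9 and 9 higher with the other 3. Activators and inhibitor had 0 higher with a pseudocount of 0.1, no filter or RPKM, and 2, 2 and 3 higher and 1 lower with median-ratio scaling, edgeR and DESeq2, which each called 2 assembly factors lower. Partner genes numbered 15, 17 and 18 higher and 5 lower there, and 15 lower with RPKM. The ratio of summed TPM became 1.62 for the core, 1.31 for the cap and, as an alternative added after the data were seen, 0.924 for the assembly factors after median-ratio scaling.

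With 1 library left out in turn, members higher ranged from 1 to 12 and lower from 10 to 16. The core ranged from 1 to 5 higher, the cap from 0 to 5 higher and 3 to 9 lower, activators and inhibitor from 0 to 1 higher and 2 to 2 lower, assembly factors from 4 to 4 lower, and partner genes from 5 to 11 higher and 9 to 11 lower. The ratio of summed TPM ranged from 1.08 to 1.14 for the core, 0.95 to 1.02 for the cap and 0.648 to 0.665 for the assembly factors. Intron calls ranged from 21 to 26 higher and 7 to 10 lower.

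After median-ratio scaling 17 members turned sign. For 6 of these that were called in the main test or in an alternative, the reversed values are given as log2 fold changes with median-ratio scaling, edgeR, DESeq2, and edgeR on unique and on junction reads where reversed. PSMD4 had 0.169, 0.191, 0.225, 0.198 and 0.403. PSMG1 had 0.116, 0.117, 0.148, 0.123 and 0.564. PSMF1 had 0.00358 after median-ratio scaling, 0.0104 with DESeq2 and 0.152 on junction reads. PSMA1 had 0.343, 0.322, 0.351, 0.414 and 0.402, not called on unique or junction reads, and 0.269 and 0.247 with median-ratio scaling and edgeR without metformin replicate 1. PSMD12 had 0.340, 0.327, 0.356, 0.330 and 0.708, 0.150 in the main test without metformin replicate 1 (range -0.163 to 0.150 with 1 library left out in turn), and 0.411 and 0.396 with the other 2 without it. PSME4 had 0.408, 0.393, 0.426, 0.395 and 0.291, not called on junction reads, and 0.430 and 0.425 with median-ratio scaling and edgeR without metformin replicate 1. Among the rest of the 17, PSMD1 and PSMD3 were called higher after median-ratio scaling, with edgeR and with DESeq2. PSMC3, PSMD6, PSMD9 and PSMD11 were called lower in the main test without metformin replicate 1. The cause of the turned signs was not tested.

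The labels number the replicates in both groups. With that number as a replicate block, 1 member was higher and 10 lower, and 0 activators were higher. The correlation of same-numbered libraries was 0.592, -0.390, 0.721, 0.248, -0.278 and -0.647, so 2 of the 6 numbers matched their own best, and the numbers do not pair the libraries. Low counts limit PSMB9 and the intron reads of PSMG3. Precision elsewhere is set by the spread between libraries, chiefly metformin replicate 1.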
